A study of Mus musculus with 4 samples.

Results

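The spots described here were the wound mesenchyme spots of 2 Visium sections, chosen by their measured share of unique molecular identifiers (UMIs, counted transcripts) in the genes Thbs4, Sod3, Mmp3, S100a4 and Timp1, of which the top 5% of each section were kept. They numbered 156 of 3119 spots in section A1 and 154 of 3088 spots in section B1, counting spots over tissue with at least 200 UMIs. In all, 310 of the 6750 spots over tissue were members. Both sections came from tendon of wild-type C57BL/6 mice, 10 weeks old and male by the design text of the series, taken 7 days after burn/tenotomy (BT), a burn combined with transection of the Achilles tendon that leads to heterotopic ossification (HO), the formation of bone outside the skeleton. Every spot therefore came from an injured limb, and no uninjured section was analysed here. The series also held 2 single-cell libraries from the tenotomy site 7 days after BT, from Hoxa11CreER;ROSA-LSL-TdTomato;Hif1a fl/fl mice given tamoxifen. In these mice the tdTomato reporter and the loss of Hif1a depend on Cre in cells that express Hoxa11, a patterning gene of the lower limb, and the remaining cells of the tissue keep Hif1a. The first library was pooled from replicates 1 and 2, and replicate 3 made up the second.

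A Visium spot is a small disc of barcoded capture sites under the section, which collects transcripts from the several cells above it, so a spot is a region and not a cell. Wound mesenchyme is the fibroblast-rich tissue that fills an injury, lays down collagen and fibronectin and remodels them with proteases. At a tendon injury that leads to HO, it holds the progenitor cells from which cartilage and bone later form. Of the genes of the rule, Thbs4 encodes a thrombospondin of tendon and muscle matrix, Sod3 an extracellular superoxide dismutase, Mmp3 the protease stromelysin-1, S100a4 a calcium-binding protein of fibroblasts and other motile cells, and Timp1 an inhibitor of matrix metalloproteinases. In such regions, fewer cells of a type and less RNA per cell cannot be told apart.

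The rule genes are given as a description, because they chose the spots. By the GRCm38 annotation, Thbs4 lies on chromosome 13 (92751590 to 92794818), Sod3 on chromosome 5 (52363791 to 52371418), Mmp3 on chromosome 9 (7445822 to 7455975), S100a4 on chromosome 3 (90603771 to 90606045) and Timp1 on chromosome X (20870166 to 20874735). Together they made up 0.593% of the UMIs of the members in A1 and 0.694% in B1, beside 0.0770% and 0.0926% of the remaining spots. Sod3 supplied the most rule-gene UMIs, with 257 of 693 in A1 and 409 of 1116 in B1. Mmp3 supplied 46 in A1 and 199 in B1, the widest gap between the sections among the 5 genes. A level was a gene's count in a set of spots in CPM (UMIs on the counts-per-million scale), and pairs of values are for A1 and then B1 throughout. Sod3 stood at 2201 and 2543 in the members, beside 245 and 349.6 in the remaining spots. Thbs4 stood at 1370.0 and 864 in the members and 204 and 161 in the remaining spots. All 5 were several times higher in the members, which is what the rule asked for. For S100a4 the member levels were 1276 and 1330.4, against 184 and 201 in the remaining spots. For Timp1 they were 694 and 964 against 75.6 and 119.7, and for Mmp3 394 and 1237 against 61.6 and 94.8. The members held between 26.4% (Mmp3) and 34.0% (Timp1) of each rule gene's UMIs in A1 and between 28.8% (Thbs4) and 49.6% (Mmp3) in B1.

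**Figure D1:**
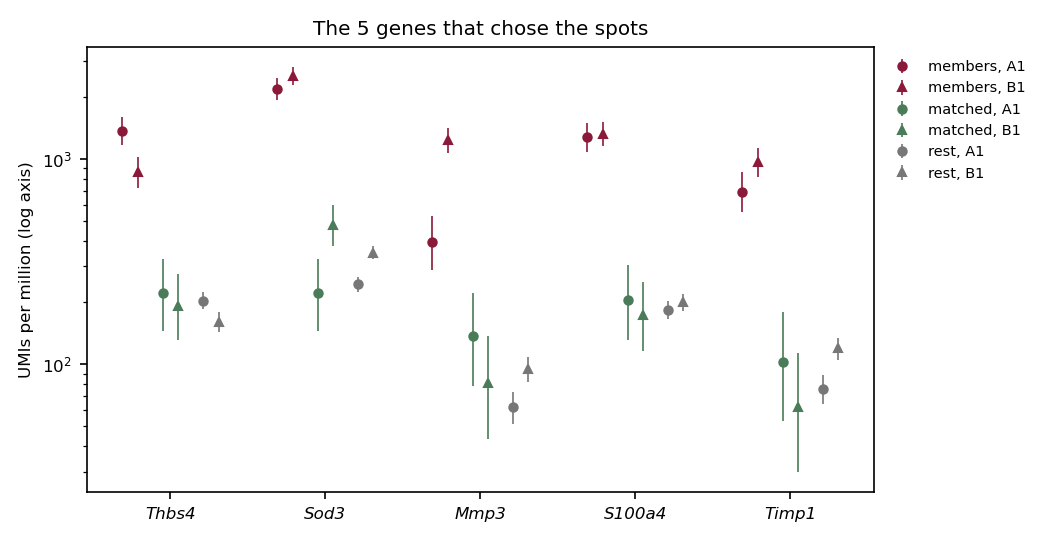
Levels of the 5 rule genes in CPM (log axis) in members, UMI-matched spots and all remaining spots (rest), with circles for section A1, triangles for section B1 and bars for exact 95% Poisson intervals. The genes chose the members, so the height of the member points is a description, and Mmp3 shows the widest gap between the sections.

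The threshold rested on few counts. The last member had a share of 0.422% in A1 and the first spot outside had 0.421%. In B1 both sides of the threshold stood at 0.465%, and ties were settled by more UMIs and then by the order of the spots. At these shares 1 rule-gene UMI was enough for a spot of 200 UMIs, and 30 members in A1 and 9 in B1 held only 1. A further 71 and 76 members held 2 to 4, and 55 and 69 held at least 5. Members with UMIs of a single rule gene numbered 56 in A1 and 38 in B1, and those with all 5 numbered 2 and 24. Thbs4 and Sod3 were found together in 50 of the 156 members of A1 and 48 of the 154 of B1, whereas Mmp3 and Sod3 were found together in 14 and 58. The members had a median of 472.5 UMIs in A1 and 665.5 in B1, and the remaining spots 522 and 528.

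On the array the members were part patch and part scatter. In A1 the largest patch of touching members held 31 spots, and in B1 it held 56. Of the members, 76 of 156 in A1 and 55 of 154 in B1 touched no other member, and 41 and 64 touched at least 2. The members of the patches were also the deeper ones, with a median of 1058 UMIs in A1 and 1541 in B1 for those touching at least 2 members, against 374.5 and 364 for those touching none. Non-members touched a member in 17.2% of cases in A1 and 15.0% in B1. The share of members at the edge of the tissue was 16.7% in A1 and 20.1% in B1, beside 12.6% and 21.0% of the remaining spots.

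**Figure D2:**
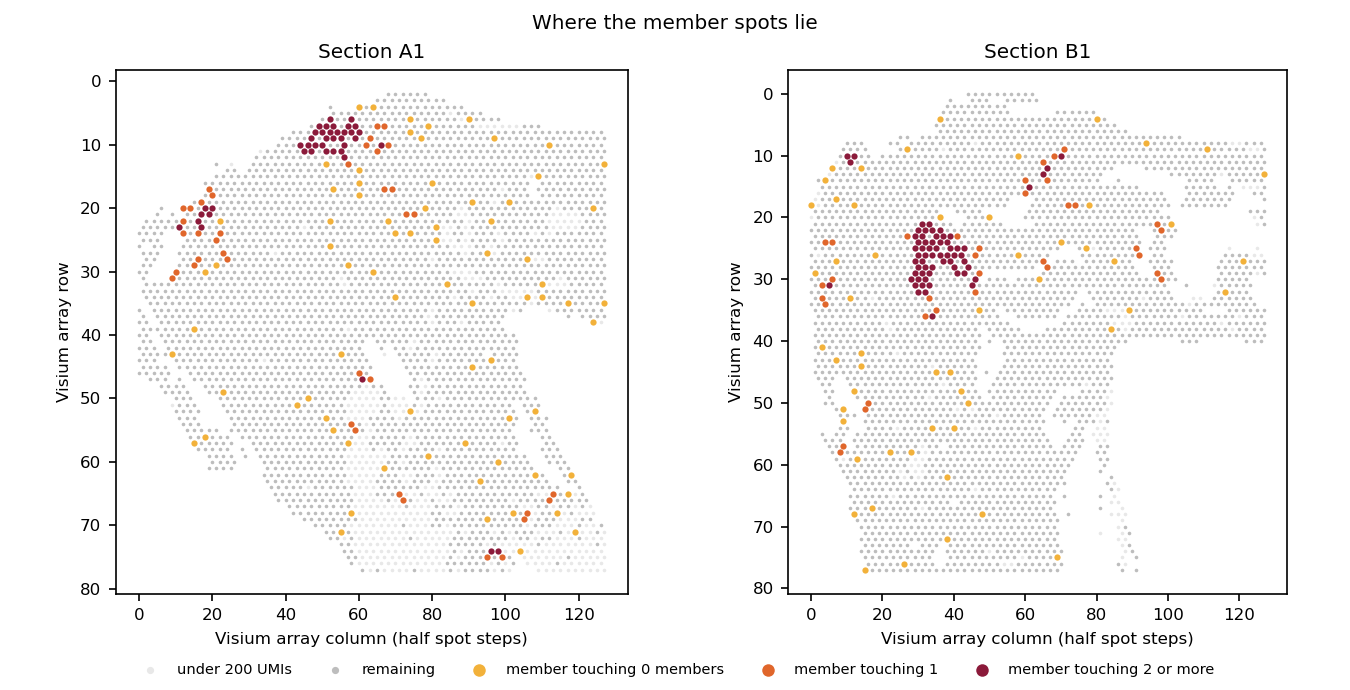
Spots of sections A1 and B1 by Visium array column and row, with remaining spots in grey and members coloured by how many other members they touch. Each section has a single large patch, of 31 members in A1 and 56 in B1, and 76 and 55 members lie alone.

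To ask which other genes marked these spots, UMIs were summed over the members and over the remaining spots of each section and compared by the quasi-likelihood test of edgeR, in a model that held the section as a block and left out the 5 rule genes. Levels below are CPM of such a sum, fold changes are on the log2 scale, ± is the standard error, and a gene rose or fell where its Benjamini-Hochberg adjusted p was under 0.05. Of 12586 genes tested, 43 (0.342%) were higher in the members and 26 (0.207%) were lower, each in the same direction in both sections. The median log2 fold change of all tested genes was -0.13. Against as many spots with the same UMIs, 3070 genes could be tested, of which 43 (1.4%) were higher and 56 (1.82%) were lower, and the median was 0.00. The comparisons shared 27 of the higher genes, 62.8% of each list. They shared 15 of the lower genes, 57.7% of the list against all remaining spots and 26.8% of the matched list. The labels do not say whether the sections came from separate mice, so the p-values measure how the difference varied between 2 sections and may reflect technical spread. Without the block the counts were 13 higher and 7 lower against the remaining spots and 0 and 0 against the matched spots (98 higher and 92 lower at an unadjusted p under 0.05). Ranking the spots without Sod3 gave 14 and 14 against the remaining spots and 8 and 1 against the matched spots, and keeping only spots of at least 500 UMIs gave 88 and 60 against the remaining spots.

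The cross-linking of collagen was represented by Lox, the lysyl oxidase that oxidises lysines so that collagen and elastin fibres can be joined. Lox stood at 2541 (95% interval 2259 to 2848) and 2779.6 (95% interval 2527 to 3051) CPM in the members of A1 and B1. The remaining spots stood at 1156 and 1184 and the matched spots at 1062 and 1089. The members were thus above both other sets in both sections, and the intervals did not overlap. The log2 fold change was 1.22 ± 0.24 (adjusted p = 0.000454) against the remaining spots and 1.26 ± 0.20 (adjusted p = 1.95e-07) against the matched spots. Lox UMIs were found in 86 of 156 and 98 of 154 members, against 64 of 156 and 66 of 154 matched spots. Against the remaining spots Lox lost the call in 7 alternatives, among them the ranking without Sod3 (log2 0.99, adjusted p = 0.112), and its direction held in all of them. Lox was the only 1 of 28 tested genes of collagen modification and cross-linking that rose against the remaining spots. Against the matched spots Serpinh1, the collagen chaperone Hsp47, rose as well (log2 0.68 ± 0.18, adjusted p = 0.00821), making 2 of 17.

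The other genes that the study names for this pathway did not pass the test in the members against the remaining spots. Plod2, the lysyl hydroxylase of collagen telopeptides, stood at 60.3 and 163 CPM in the members and 79.5 and 87.4 in the remaining spots, on 7 and 26 UMIs, and its order differed between the sections. Hif1a, the oxygen-sensitive transcription factor subunit, stood at 60.3 and 87.6 against 70.8 and 95.3, on 7 and 14 UMIs, and its log2 fold change was -0.12 ± 0.39 (adjusted p = 0.998). The log2 fold changes against the remaining spots were 1.15 ± 0.32 (adjusted p = 0.0607) for Loxl2, 0.79 ± 0.24 (adjusted p = 0.108) for Loxl3 and -0.35 ± 0.27 (adjusted p = 0.87) for Loxl1, which encode other lysyl oxidases. For Vegfa, the angiogenic growth factor, the value was 0.13 ± 0.28 (adjusted p = 0.998). Slc2a1, the glucose transporter GLUT1, was at -0.13 ± 0.24 (adjusted p = 0.998) against the remaining spots. Against the matched spots it fell, at -0.69 ± 0.19 (adjusted p = 0.0187). The matched UMIs were uneven, since 5 spots held 42.7% of them in A1 and 40.2% in B1. Slc2a1 was found in 49 and 70 members and in 43 and 69 matched spots, and its matched call was lost in 8 alternatives. It was the only 1 of 13 tested HIF-1 target and oxygen-sensing genes to pass the test there, and 0 of 26 passed in edgeR against the remaining spots, with 2 higher and 2 lower at an unadjusted p under 0.05, 0 by DESeq2 and a median log2 fold change of 0.04.

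The fibrillar collagens themselves had no call in the members against the remaining or the matched spots. Col1a1, a chain of type I collagen, stood at 2911 and 4307 CPM in the members, 2592 and 3018 in the remaining spots and 2553 and 2894 in the matched spots, and its log2 fold change was 0.38 ± 0.25 (adjusted p = 0.81). Col3a1, the chain of type III collagen, stood at 3127 and 4075 against 2547 and 2418, at 0.56 ± 0.25 (adjusted p = 0.542). Col1a2, named after its values were seen, was among the most abundant genes everywhere, at 22568 and 18568 in the members and 24153 and 19705 in the remaining spots. In both comparisons 0 of 10 fibrillar collagen genes passed the test, with median log2 fold changes of 0.32 and 0.30. The medians over all genes tested were -0.13 and 0.00, and 7 and 9 of the 10 fold changes were positive. Over all genes, 0.342% rose and 0.207% fell in the first comparison and 1.4% and 1.82% in the second. A count of 0 of 10 lies near these shares. At an unadjusted p under 0.05 edgeR gave 2 higher and 1 lower against the remaining spots and 2 higher and 0 lower against the matched spots, and DESeq2 called 0 in both. Col6a2, a chain of the beaded-filament collagen VI, did rise (log2 0.88 ± 0.23, adjusted p = 0.0354), as 1 of 14 non-fibrillar collagens, a call lost in 12 alternatives.

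Among matrix glycoproteins, Fn1, encoding the fibronectin on which wound cells crawl, stood at 1628 (95% interval 1404 to 1877) and 1434 (95% interval 1254 to 1632) CPM in the members, against 828 and 716 in the remaining spots and 831 and 759 in the matched spots. The members were higher in both sections, by 1.02 ± 0.23 (adjusted p = 0.00572) and 0.90 ± 0.19 (adjusted p = 0.000482). Ecm1, a secreted matrix protein that binds proteoglycans and collagens, stood at 629 and 901 against 373 and 359.8 and rose by 1.10 ± 0.24 (adjusted p = 0.00223). The rise lay in the patches, with 1110.1 and 1074 in members touching at least 2 others and 232 and 294 in lone members, and in A1 fewer members (38) than matched spots (41) had an Ecm1 UMI. Spp1, encoding osteopontin, went the other way, at 94.7 and 338 in the members and 171 and 1113 in the remaining spots (log2 -1.42 ± 0.30, adjusted p = 0.00119). These were the 3 of 22 tested wound matrix glycoproteins that passed against the remaining spots. Comp, a cartilage and tendon matrix protein, named after its values were seen, rose against the matched spots (log2 0.74 ± 0.18, adjusted p = 0.00384) and was at 0.70 ± 0.24 (adjusted p = 0.227) against the remaining spots. Whether these comparisons differ was not tested. Prelp, a small leucine-rich proteoglycan, rose against the remaining spots (log2 1.29 ± 0.29, adjusted p = 0.00522) and was at 1.10 ± 0.36 (adjusted p = 0.0567) against the matched spots. Dcn, encoding decorin and named after its values were seen, was at 0.76 ± 0.26 (adjusted p = 0.2) and 0.89 ± 0.28 (adjusted p = 0.0495).

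Matrix degradation was represented by a pair of proteases. Mmp9, the gelatinase B of osteoclasts and leukocytes, stood at 1059 (95% interval 881 to 1264) and 1033 (95% interval 881 to 1203) CPM in the members, beside 431 and 349 in the remaining spots and 403 and 329.9 in the matched spots. Ctsk, encoding cathepsin K, the collagen-digesting protease of osteoclasts and some fibroblasts, stood at 1929 (95% interval 1685 to 2199) and 2016 (95% interval 1802 to 2248), beside 955 and 678 in the remaining spots and 934 and 834 in the matched spots. Neither gene's member interval overlapped that of the other sets in either section. Mmp9 rose by 1.47 ± 0.23 (adjusted p = 2.03e-06) and 1.48 ± 0.23 (adjusted p = 1.95e-07), and Ctsk by 1.33 ± 0.24 (adjusted p = 6.1e-05) and 1.12 ± 0.20 (adjusted p = 6.74e-06). They were the 2 of 27 tested proteases and inhibitors that rose against the remaining spots, and 2 of 15 against the matched spots. Mmp9 was uneven, since the 5 members with the most held 35.0% of its member UMIs in A1 and 37.6% in B1, and 43 of 156 and 51 of 154 members had any.

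Both proteases also belong to the osteoclast marker list, and the third member of it that passed was Acp5, the tartrate-resistant acid phosphatase of osteoclasts, named after its values were seen. Acp5 stood at 310.1 and 344 CPM in the members, 125 and 109 in the remaining spots and 137 and 112 in the matched spots, and rose by 1.53 ± 0.27 (adjusted p = 3.76e-05) and 1.37 ± 0.32 (adjusted p = 0.00257). In A1 the intervals of members and matched spots overlapped. Of the 8 listed genes, 5 were tested against the remaining spots and 3 rose, and against the matched spots all 3 tested rose. The summed list stood at 3385 and 3512 in the members and 1558 and 1185 in the remaining spots. The more specific fusion and pump genes were sparse. Ocstamp was at 1.65 ± 0.87 (adjusted p = 0.645), Atp6v0d2, a proton pump subunit, had 2 UMIs in the members of A1 and 9 in those of B1, and Oscar, Dcstamp and Calcr had too few counts to be tested. Tnfsf11, also named after its values were seen, encodes RANKL, the cytokine that drives osteoclast formation. It stood at 189 and 219 in the members on 22 and 35 UMIs, 66 and 61.5 in the remaining spots and 42.8 and 31.1 in the matched spots on 5 UMIs each. It rose by 1.73 ± 0.31 (adjusted p = 6.22e-05) against the remaining spots, and its matched fold is not given, since the gene passed the count filter there through the members. Tnfrsf11a, its receptor RANK, was at 1.18 ± 0.54 (adjusted p = 0.556) on 7 and 9 UMIs.

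Of the secreted signals, Cxcl14, a chemokine of stroma and epithelium, stood at 896 and 532 CPM in the members and 366 and 259 in the remaining spots, and rose by 1.20 ± 0.24 (adjusted p = 0.00042) and 1.45 ± 0.25 (adjusted p = 6.74e-06). Ccl7, a monocyte chemokine, and Cxcl5, a neutrophil chemokine, rose against the remaining spots (log2 1.33 and 1.49, adjusted p = 0.00779 and 0.0124), which made 3 of 31 tested stromal cytokines and growth factors. Ccl7 lost this call in 7 alternatives. Against the matched spots it was at 1.27 ± 0.40 (adjusted p = 0.0505), and Cxcl5 was not tested. There 2 of 14 tested genes of the list rose, Cxcl14 among them, and 1 fell. The rise of Cxcl5 was uneven, with section log2 ratios of 0.48 in A1 and 1.93 in B1. Igf1, the insulin-like growth factor, fell against the matched spots (log2 -0.94 ± 0.30, adjusted p = 0.0465), a call lost in 14 alternatives.

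The remaining genes named by rule came from the cytoskeleton, transcription, glycolysis and the secretory pathway. Vim, encoding the intermediate filament vimentin of mesenchymal and other non-epithelial cells, stood at 3506 (95% interval 3173 to 3863) and 3944 (95% interval 3642 to 4264) CPM in the members and 1503 and 1695 in the remaining spots, and rose by 1.25 ± 0.25 (adjusted p = 0.000454). Snai1, a transcription factor of epithelial-mesenchymal transition, stood at 982 and 1045 against 455 and 525 and rose by 1.09 ± 0.23 (adjusted p = 0.00213). Pkm, a glycolytic pyruvate kinase, stood at 2352 and 3080.0 against 1079.8 and 1493 and rose by 1.12 ± 0.24 (adjusted p = 0.00266). Rcn3, a calcium-binding protein of the endoplasmic reticulum, and Arglu1, a nuclear splicing regulator, rose by 0.98 ± 0.23 (adjusted p = 0.0086) and 1.05 ± 0.24 (adjusted p = 0.00554). The 5 genes also rose against the matched spots, where the log2 fold changes ran from 0.71 for Arglu1 to 1.10 for Snai1. The matched call of Arglu1 was lost in 12 alternatives. Mt1, a metallothionein, rose as 1 of 17 antioxidant genes (log2 0.97 ± 0.24, adjusted p = 0.0201), and S100a6, a calcium-binding protein related to S100a4, rose against the remaining spots (log2 0.91 ± 0.23, adjusted p = 0.0261) and was at 0.49 ± 0.18 (adjusted p = 0.146) against the matched spots. Fibin and the creatine kinase gene Ckb, named after their values were seen, rose by 1.58 ± 0.26 (adjusted p = 3.01e-06) and 1.46 ± 0.28 (adjusted p = 0.00018).

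**Figure D3:**
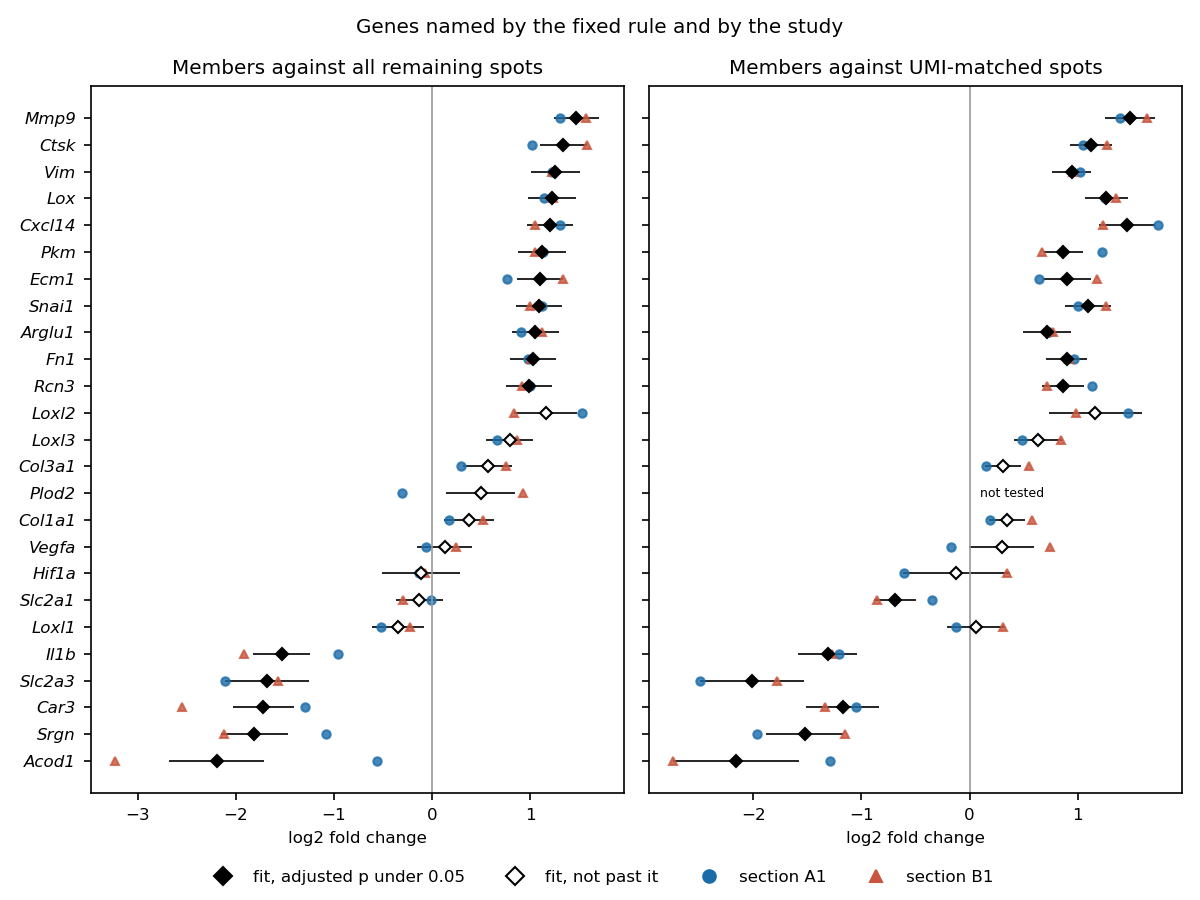
Log2 fold changes of the members against all remaining spots (left) and against UMI-matched spots (right), with diamonds and bars for the fit and its standard error, filled where the adjusted p was under 0.05, circles for section A1 and triangles for section B1. The upper 11 genes, from Mmp9 to Rcn3, and the lowest 5, from Il1b to Acod1, were named for a call in both comparisons. The naming also asked for the same direction in both sections, so their side of 0 is a description. Acod1 passed the matched count filter through the matched spots, so its matched point is a description too.

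Among the genes that fell were genes of neutrophils and inflammatory myeloid cells, of muscle and of fat. Il1b, encoding the cytokine interleukin-1 beta, stood at 146 and 225 CPM in the members, 292 and 860.4 in the remaining spots and 343 and 548 in the matched spots. Il1b fell in both sections, at -1.53 ± 0.29 (adjusted p = 0.000156) and -1.31 ± 0.27 (adjusted p = 0.000322). The matched difference in A1 lay in few spots, since there Il1b was found in 13 members and 10 matched spots, of which 5 held 87.5% of the matched UMIs, and in B1 in 29 members and 34 matched spots. Srgn, a granule proteoglycan of leukocytes, stood at 60.3 and 119 against 137 and 532 (log2 -1.81 ± 0.34, adjusted p = 0.000156). Acod1, which makes itaconate in activated macrophages, stood at 43.1 and 18.8 against 69.9 and 206 (log2 -2.19 ± 0.48, adjusted p = 0.00285), on 5 and 3 UMIs in the members. Slc2a3, the glucose transporter GLUT3, stood at 8.61 and 81.4 against 55.4 and 250.3 (log2 -1.68 ± 0.42, adjusted p = 0.0201), on 1 UMI in the members of A1. S100a8 and S100a9, the calprotectin subunits of neutrophils, fell by 1.28 ± 0.33 (adjusted p = 0.0261) and 1.06 ± 0.27 (adjusted p = 0.0261). In A1 S100a9 was found in 23 members and 15 matched spots, of which 5 held 73.7% of the matched UMIs. Of the neutrophil marker list 3 of 8 tested genes fell and 0 rose. Car3, a carbonic anhydrase of muscle and fat, stood at 241 and 37.6 against 604 and 237 (log2 -1.72 ± 0.31, adjusted p = 6.22e-05). Its direction was shared by Ckm, the muscle creatine kinase (log2 -1.29 ± 0.27, adjusted p = 0.00142), which with Tnnt3 and Tnnc2 made 3 of 15 skeletal muscle markers, and by Fabp4, the fatty acid binding protein of adipocytes (log2 -1.10 ± 0.26, adjusted p = 0.00667).

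The name of the spots was checked against lists that the rule did not use. Of 21 tested genes of fibroblast and progenitor identity, 0 passed in edgeR against the remaining spots (1 higher and 2 lower unadjusted, 0 by DESeq2, median log2 0.18), and 1 of 11 rose against the matched spots. This was Prrx1, a transcription factor of limb mesenchyme, at 0.78 ± 0.21 (adjusted p = 0.0137) there and at 0.57 ± 0.24 (adjusted p = 0.448) against the remaining spots. Pdgfra, a receptor of fibroblast progenitors, stood at 215 and 106 CPM in the members and 142 and 113 in the remaining spots. Of the contractile genes 0 of 8 passed (3 higher and 0 lower unadjusted, 0 by DESeq2, median log2 0.46), and Acta2, the actin of myofibroblasts, was at 0.88 ± 0.28 (adjusted p = 0.148). The tendon (0 of 10), cartilage (0 of 15), bone (0 of 10) and cell division (0 of 17) lists had no gene past the test against the remaining spots either, by edgeR or DESeq2. Unadjusted, edgeR gave 1 higher and 1 lower for tendon, 2 higher and 1 lower for cartilage, 0 higher and 4 lower for bone and 5 higher and 1 lower for cell division, and the medians were 0.10, -0.03, -0.50 and 0.49. Tnmd, the tenomodulin of mature tendon, had 0 UMIs in the members of A1 and 2 in those of B1. In A1 a Tnmd count of 0 allows up to 3 UMIs, or 25.8 CPM. Over all genes tested, 0.342% rose and 0.207% fell against the remaining spots, so 0 calls in lists this short lies near that share. Against the matched spots 1.4% of all genes rose. Col1a2, Vim and Fn1 show mesenchymal transcripts in the members. The identity list could not settle whether the members differ from the rest of these injured sections. They are therefore called here by their rule, the member spots, and no cell type is assigned to them.

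Markers of other cell types were present in the members. Summed keratinocyte markers stood at 8389.7 and 13278 CPM in the members, 13006 and 13211 in the remaining spots and 15774 and 24637 in the matched spots. Krt14, the keratin of basal epidermis and the most abundant of them, stood at 4936 and 11225 in the members, 7591 and 10258 in the remaining spots and 9871 and 20205 in the matched spots. Of these markers 0 of 12 passed against the remaining spots in edgeR (0 higher and 5 lower unadjusted, 1 by DESeq2), and 8 of 10 fell against the matched spots. The matched spots thus held more epidermal transcripts than the members in both sections, and the part of this in the matched comparison was not tested. Skeletal muscle markers summed to 3428 and 595 in the members and 5722 and 1835 in the remaining spots, so both sections were lower in the members. Neutrophil markers summed to 629 and 845 in the members against 840.3 and 2689 in the remaining spots, and macrophage markers to 499.6 and 569.7 against 771 and 928. C1qa, a complement gene of tissue macrophages, was found in 5 and 4 members and in 20 and 14 matched spots. Its matched fold is not given, since the gene passed the count filter there through the matched spots. Against the remaining spots Cd14 was the only 1 of 10 tested macrophage markers that passed the test, and it fell. Its fall lay in B1, with section log2 ratios of -0.04 in A1 and -2.28 in B1. It did not pass against the matched spots (edgeR adjusted p = 0.2). Csf1r, the receptor of macrophage growth factor, was at 0.49 ± 0.30 (adjusted p = 0.749) against the remaining spots. Endothelial markers summed to 861 and 1152 in the members, below the remaining spots in A1 and above them in B1 (1004 and 797), with 0 of 10 past the test in edgeR, 0 unadjusted and 0 by DESeq2. Their part in the results above was not tested.

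**Figure D4:**
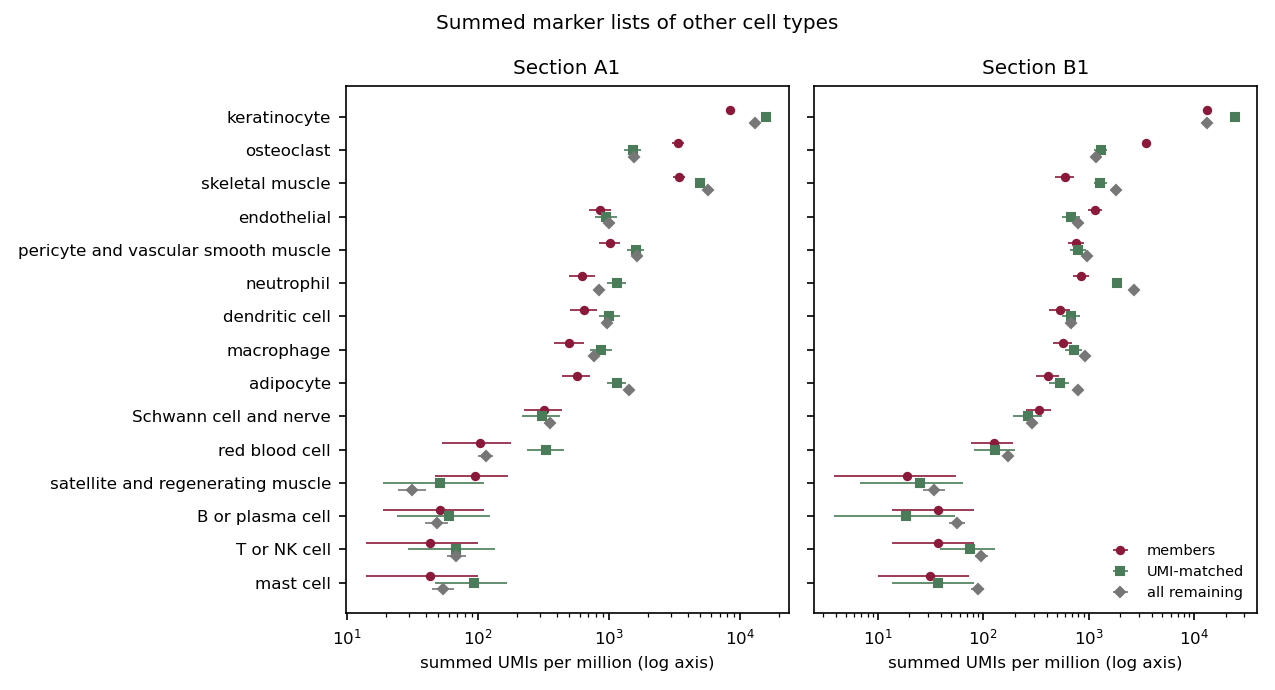
Summed levels of the marker lists of other cell types in CPM (log axis) in sections A1 and B1, for members (circles), UMI-matched spots (squares) and all remaining spots (diamonds), with exact 95% Poisson intervals. Osteoclast markers are higher in the members in both sections, and neutrophil, skeletal muscle and adipocyte markers are lower.

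Each rule gene was also left out of the ranking in turn, which is given as a description because they were chosen together as markers of the same region. When the spots were ranked by the other 4 genes, Thbs4 stood at 600.0 and 622 CPM in the spots so chosen and 249 and 182 in the remaining spots. Sod3, left out in the same way, stood at 716 and 1712 against 331 and 431, S100a4 at 793 and 832 against 212 and 246 and Timp1 at 316 and 635 against 97.5 and 145. For Mmp3 the levels were 153 and 852 against 75.2 and 127. In spots matched on UMIs, Mmp3 had 20 UMIs in A1, beside 18 in the chosen spots, and 18 in B1, beside 130.

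The members differed in which rule gene led them. A member was led by the rule gene with the most UMIs in it, which was Sod3 in 58 members of A1 and 49 of B1, Thbs4 in 21 and 10, S100a4 in 22 and 15, Timp1 in 12 and 14 and Mmp3 in 8 and 21, with the other members tied. In the members led by Mmp3, Ctsk stood at 3228 and 4023 CPM and Mmp9 at 1544 and 2270.4. In those led by Thbs4, Ctsk stood at 1444 and 1677 and Mmp9 at 498 and 524. The Thbs4-led members thus had less of both proteases than the Mmp3-led ones in both sections. The sums were small, with 20214 and 9604 UMIs in the Thbs4-led members and 7163 and 25318 in the Mmp3-led ones. The other groups had no common order, since Ctsk stood at 4056 and 1145 and Mmp9 at 2549 and 833 in the Timp1-led members, and Mmp9 at 1237 and 518 in the S100a4-led ones. Lox stood at 2240.4 and 5554 in the Thbs4-led members and 1965 and 2629 in the Mmp3-led members. These levels are a description and were not tested.

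Levels also differed by position on the array, described here with no test, since position follows from the choice of the members and the lone members were the shallower ones. In members that touched at least 2 others, Lox stood at 3608 and 3148 CPM, in members touching 1 at 2570.3 and 2529 and in lone members at 956 and 1428. The remaining spots had 1156 and 1184, so the lone members lay below them in A1 and above them in B1. Vim fell in the same order, from 4916 and 4745 through 3469.9 and 3187 to 1477 and 1259.8. Ctsk stood at 2458 and 2475 in the patches and 927 and 462 in lone members, and Acp5 at 396 and 429.7 in the patches and 116 and 42 in lone members. Il1b ran the other way, at 99.1 and 140.1 in the patches and 319 and 462 in lone members, and so did Ckm, at 278 and 37.4 in the patches and 1825 and 336 in lone members. Summed osteoclast markers stood at 4302 and 4269 in the patches, against 1303 and 1176 in lone members. In lone members Vim, Ctsk, Acp5 and the summed osteoclast markers were no higher than in the remaining spots in either section. Col2a1, the collagen of cartilage, showed no common order, with 7632 and 486 in the patches and 5039.8 and 3821 in lone members.

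Around the members the same genes were highest in the nearest spots. Among non-members, Lox stood at 1601 and 1865 CPM at 1 step from the nearest member, 1162 and 1311 at 2 steps and 1063 and 991 at 3 steps. Vim stood at 2396 and 2944 at 1 step and 1298 and 1757 at 3 steps, and Fn1 at 1118 and 929 at 1 step and 902 and 671 at 3 steps. Il1b was lowest at 1 step, at 143 and 479, and highest at 4 to 5 steps, at 593 and 1386. The rule genes themselves were raised at 1 step, with Sod3 at 452 and 697 against 206 and 222 at 6 or more steps. The authors' deposited Moran's I, a score of how alike neighbouring spots are, was 0.159 in A1 and 0.216 in B1 for Vim, 0.124 and 0.196 for Lox, and 0.0757 and 0.164 for Sod3. It ranked Lox at place 56 of 19132 genes in A1 and at place 55 of 19222 in B1.

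**Figure D5:**
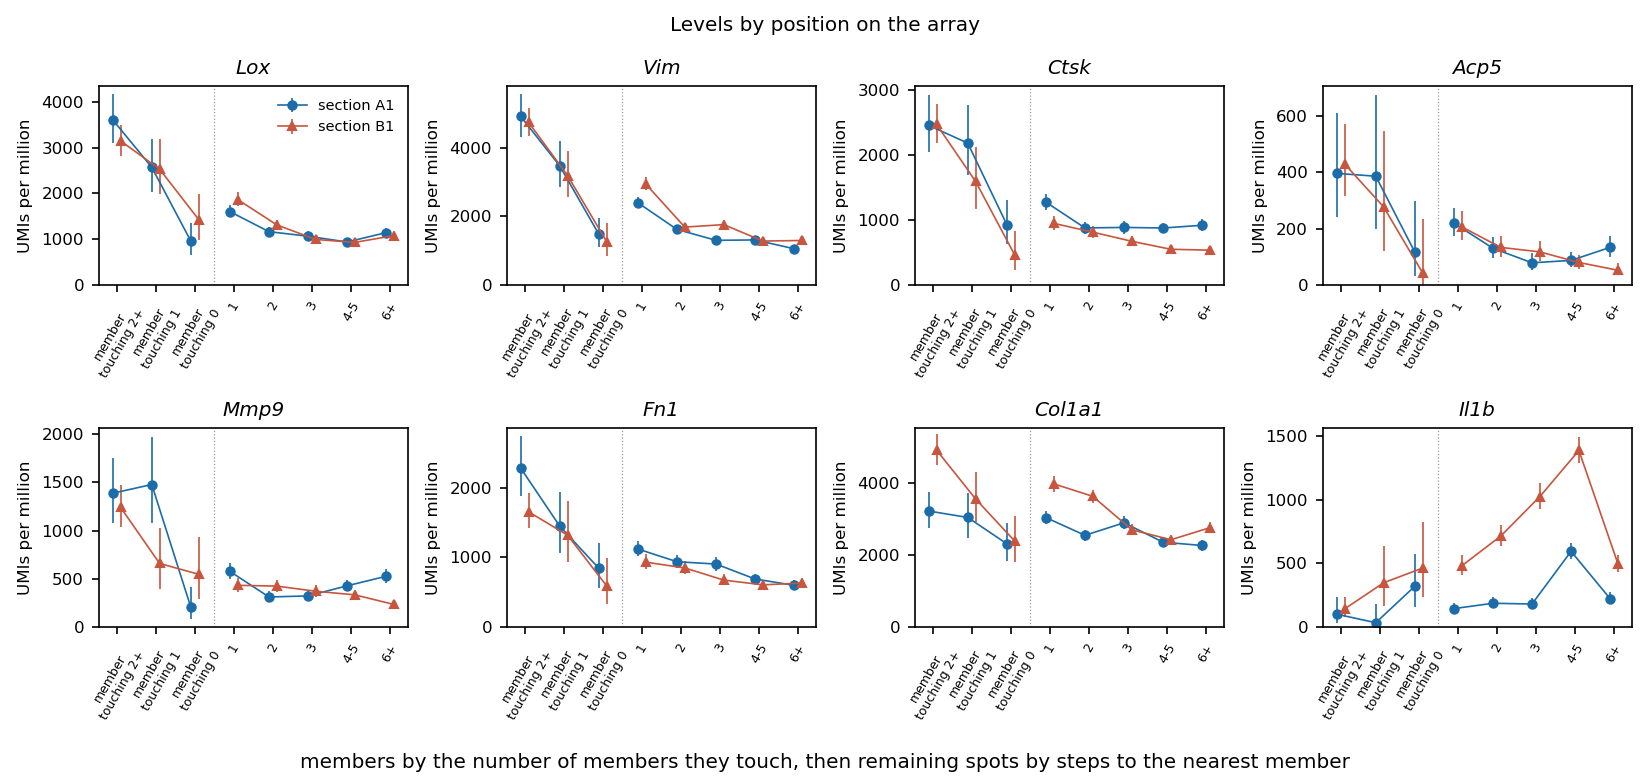
Levels of 8 genes in CPM, with exact 95% Poisson intervals, in members by how many members they touch (left of the dotted line) and in remaining spots by steps to the nearest member (right), for sections A1 (circles) and B1 (triangles). Lox, Vim, Ctsk, Acp5 and Fn1 are highest in members that touch at least 2 others and much lower in lone members, and Il1b is highest at 4 to 5 steps.

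The members were compared with 3 other sets of spots in 1 fit, without the genes that chose any of them. The tendon-marker and myeloid-marker spots were the top 5% of the others by shares of Tnmd, Fmod, Scx, Mkx and Kera (148 and 147 spots) and of Il1b, S100a8, S100a9 and Cxcr2 (141 and 139 spots). The rim held the 448 and 397 other spots that touch a member, which leaves out those of the 509 and 441 touching spots that fell in either marker set. Between the members and the rim 0 of 3966 genes passed in either direction (0%), with 75 higher and 82 lower at an unadjusted p under 0.05 in edgeR and 0 by DESeq2. Between the members and the tendon-marker spots 0 passed as well (0%), with 191 higher and 172 lower unadjusted and 9 higher and 7 lower by DESeq2. Lox was at 0.58 ± 0.29 (adjusted p = 0.981) against the rim and 1.09 ± 0.34 (adjusted p = 0.294) against the tendon-marker spots, and Ctsk at 0.79 ± 0.28 (adjusted p = 0.981) and 1.15 ± 0.33 (adjusted p = 0.162). Both genes were higher in the members in each fit, by less than the spread allowed to be called.

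Against the myeloid-marker spots 215 genes were higher (5.42%) and 527 lower (13.3%), and 722 of these 742 had the same direction in both sections. Lox stood at 2541 and 2779.6 CPM in the members and 658 and 198 in the myeloid-marker spots (log2 2.28 ± 0.48, adjusted p = 6.5e-05), and Vim at 3506 and 3944 in the members and 1050.1 and 615 in the myeloid-marker spots (log2 1.67 ± 0.37, adjusted p = 0.000193). Col1a1 and Col3a1, which had not separated the members from the remaining spots, rose here by 1.30 ± 0.41 (adjusted p = 0.0132) and 1.34 ± 0.36 (adjusted p = 0.00248). Both rises were far larger in B1, at 3.06 beside 0.75 in A1 for Col1a1 and 2.72 beside 1.00 for Col3a1. Lox showed the same unevenness, at 3.76 in B1 beside 1.92 in A1. The size of these rises thus depended on the section, and their direction did not. Of the fibrillar collagens 5 of 10 rose. Spp1 stood at 94.7 and 338 in the members and 2022 and 10431 in the myeloid-marker spots (log2 -5.41 ± 0.89, adjusted p = 3.55e-07). Of the HIF-1 target and oxygen-sensing genes 10 of 20 fell, Hif1a and Slc2a1 among them, and 2 rose, Plod2 and Cxcl12. Pkm and Mmp9, both higher in the members than in the remaining spots, were not called here. Their fitted values were -0.16 and -0.13, whereas the log2 ratios of their CPM in A1 and B1 were 0.58 and 0.25 for Pkm and 0.80 and 0.26 for Mmp9, so their direction differed between the fit and the CPM. This was not particular to them. The fit also lay below both section ratios for S100a6 (-0.29, beside 0.61 and 0.16), Slc2a1 (-1.59, beside -0.72 and -1.22) and Hif1a (-2.13, beside -1.62 and -1.38). Lox, Col1a1 and Col3a1 lay between theirs.

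The same rule was applied to single cells as a description, since these were other mice of another genotype, measured by another assay. The top 5% of cells by the same share were 64 of 1290 in the pooled library and 40 of 796 in replicate 3, with 1 barcode shared between the libraries. Every chosen cell had a UMI of S100a4. Thbs4 stood at 5777 and 5616 CPM in the chosen cells, beside 655 and 814 in the others. Sod3, the leading rule gene in the sections, stood at 133 and 88.2. Lox stood at 1373 and 1150.0 in the chosen cells and 490.4 and 504 in the others, and Tnfsf11 at 29.7 and 26.5 against 13.1 and 12. These genes were thus higher in the chosen cells of both libraries, as was Col1a1, at 34939 and 31058 against 18043 and 22082. Other genes went against the spots, with Cxcl14 at 85.3 and 68 in the chosen cells against 145 and 164 and Ccl7 at 195 and 4.42 against 289 and 367. Spp1, which fell in the member spots, stood at 1795 and 1088 against 289 and 319. Ctsk stood at 746 and 761 against 416 and 533, whereas Mmp9 stood at 3.41 and 3.53 against 28.4 and 6.14 and Acp5 at 34.1 and 35.3 against 53.5 and 38.4. Of the osteoclast genes raised in the member spots, Ctsk was thus the only 1 of the 3 with a higher CPM in the chosen cells of both libraries. By cells with a UMI, Acp5 was also higher, at 35.9% and 42.5% of the chosen cells against 23.6% and 28.4% of the others. Tnmd, at or near 0 in the member spots and near 0 in the matched spots too, stood at 1259 and 1397 in the chosen cells against 396 and 512. Ptprc, the pan-leukocyte marker, had a UMI in 19 of the 64 chosen cells (29.7%) and 8 of the 40 (20%), beside 33.4% and 25.3% of the other cells. The chosen cells had medians of 18413 and 20626 UMIs and the others 13639 and 18104, with no correction for free RNA.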

How the data were processed

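Visium sections A1 and B1 were FFPE sections hybridised to gene probes, and the single-cell libraries were made with the 10x 3' chemistry. The deposited matrices hold UMI counts that the authors made with Space Ranger 2.0.1 (sections) and Cell Ranger 5.0.1 (cells), per the file headers, on mm10 per the submitters' processing notes. Moran's I is a deposited score per gene, which the authors' pipeline computed for each section. The sections held 2259744 and 2308754 UMIs, with medians of 454 and 516 per spot over tissue.

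Spots of at least 200 UMIs were ranked by their share in the 5 rule genes. Counts were summed per section over the members, the remaining spots and spots matched 1 to 1 on UMIs. Sums were compared with edgeR 4.0.16 (TMM, filterByExpr, quasi-likelihood, Benjamini-Hochberg), with the section as a block and without the rule genes, and with DESeq2 1.42.0 as an alternative. The 2 sections were paired because each gave both sums. The standard error is the log2 fold change over the normal deviate of its p. Intervals of levels are exact 95% Poisson limits and, like the limit from a count of 0 (3 UMIs), cover counting error only.

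Cells needed 200 detected genes, a mitochondrial share of UMIs of 20% or less and a ribosomal share of 5% or more. Doublets were not called. The scripts were tested on simulated data.

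The members and gene lists were chosen with earlier results of these data known. Named genes were, per gene list, the 3 that changed most with the same direction in both sections. To these were added the 12 that rose and 5 that fell most in both comparisons with at least 50 UMIs per section, the genes that the study names, and the sums and most abundant genes of marker lists. A gene that this rule names is not reported here. Genes outside this rule were named after their values were seen: Tnfsf11, Tnfrsf11a, Acp5, Oscar, Ocstamp, Dcstamp, Atp6v0d2, Calcr, Ckb, Fibin, Serpinh1, Comp, Dcn, Prrx1, Igf1, C1qa, Tnnc2, Col1a2, Pdgfra, Acta2, Tnmd and Col2a1. Gene locations come from the GENCODE annotation of GRCm38. Cxcl2 had no probe in the set, so the myeloid-marker spots rest on 4 of 5 genes.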

Additional observations from a re-analysis of the deposited data

How the results depend on the processing

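The alternatives planned for each comparison were run on its counts and on genes named in the text, and no call among these turned its direction. Against the remaining spots, the 43 higher genes became 88 with at least 500 UMIs per spot, 10 with the top 2.5%, 4 in members touching at least 2 others, 5 without a filter on low counts, 13 with no replicate block, and 14, 24 and 11 when ranked without Sod3, Thbs4 or Timp1. Members with at least 5 rule-gene UMIs, an alternative chosen after seeing the data, gave 20. The 26 lower genes became 60 with at least 500 UMIs, 17 with at least 100, 12 by DESeq2, 1 without a filter, 7 with no replicate block, and 14, 12 and 12 without Sod3, Thbs4 or Timp1. Against the matched spots, the 43 higher genes became 9 by DESeq2, 24 with its size factors, 22 in members touching at least 2, 21 without a filter, 12 and 8 without Mmp3 or Sod3, and 0 both with no replicate block and with at least 5 rule-gene UMIs. The 56 lower genes became 7 by DESeq2, 12 without a filter, 15 and 1 without Mmp3 or Sod3, 86 with the top 10%, and 0 in the same 2 cases. In these, edgeR gave 98 higher and 92 lower genes with no replicate block and 109 and 151 with at least 5 rule-gene UMIs at an unadjusted p under 0.05. DESeq2 was not run in these cases. Against the tendon-marker spots, DESeq2 gave 9 higher and 7 lower, the top 2.5% gave 5 and 4, and no filter gave 2 higher. Against the myeloid-marker spots, the 215 higher genes became 134 by DESeq2, 604 without a filter and 143 with no replicate block. The cause was not tested.

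Of the values of single genes, 225 of 1488 against the remaining spots and 268 of 1184 against the matched spots lost a call, and 39 and 27 gained one. These totals include genes that had no call to lose, so they understate the share of called values that lost theirs. Acp5 kept its call against the remaining spots wherever a value was given. Against the remaining spots Col6a2 lost its call in 12 alternatives, S100a6 in 11, Mt1 in 10, and Rcn3, S100a8, Cd14 and Tnnt3 in 9. Fn1, Pkm and Slc2a3 lost theirs in 8. Against the matched spots Igf1 lost it in 14, Arglu1 and Dcn in 12, Prrx1 in 11, Car3 and Ckm in 10, and Tnnt3 in 9. Leaving out either section leaves a value with no test. Depth limits the sparse genes most, since many named genes rest on under 50 UMIs a section.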
